A study of Mus musculus with 2 samples.

Results

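The genes that add and oxidise DNA methylation were followed across the cell types of the mouse yolk sac and between Baf155 CKO and wild-type (WT) yolk sacs. They were the rows of the deposited gene tables with the symbols of the 3 DNA methyltransferases (Dnmt1, Dnmt3a and Dnmt3b) and the 3 TET enzymes (Tet1, Tet2 and Tet3), 6 of 33456 genes, and all 6 were found in both libraries. Each genotype was represented by 1 library of 10x Genomics 5′ single-cell RNA sequencing, so no test between genotypes was possible. The first library was labelled Baf155 CKO and the second wild type, both of the B6 strain and both from yolk sacs of E9.5 and E10.5 embryos pooled in equal numbers. Cells of both libraries were released with collagenase, frozen, and sorted as live Ter119-negative cells, which removes erythroid cells late in maturation. The sources used here do not give the Cre driver, which part of Smarcc1 (the gene for Baf155) was deleted, or how many embryos were pooled. The material is called nuclei in the labels although the protocol sorts live cells, and no cell can be assigned to E9.5 or E10.5.

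DNA methylation in mammals sits mostly on cytosines followed by guanine. Dnmt1, guided by Uhrf1, copies the marks onto the new strand after replication, whereas Dnmt3a and Dnmt3b set marks on sites that had none. TET enzymes oxidise methylated cytosine with 2-oxoglutarate and oxygen, after which the base is diluted by replication or removed by the glycosylase Tdg. In adult mouse and human blood, Dnmt3a and Tet2 restrain self-renewal of haematopoietic stem cells and are often mutated in clonal blood disease, and Dnmt3b is prominent in the early embryo.

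Cells were sorted into types by marker genes, with a marker counted as seen at 2 or more UMIs (unique molecular identifiers, each standing for 1 captured RNA molecule). The progenitor gate needed 4 of Kit, Myb, Gata2, Runx1, Mpo and the like, the endothelium gate 4 of Cdh5, Kdr, Tie1, Tek and the like, and cells that passed both were kept apart as dual cells. Erythroid-gated cells had globins at 5% or more of their UMIs, and stromal-gated cells had mesenchymal genes at 0.2% or more. The CKO library held 93 progenitor-gated, 49 dual, 261 erythroid-gated, 20 macrophage-gated, 57 endothelium-gated and 278 stromal-gated cells. The WT library held 168 progenitor-gated, 20 dual, 154 erythroid-gated, 51 macrophage-gated, 51 endothelium-gated and 243 stromal-gated cells. The megakaryocyte gate held 48 CKO and 14 WT cells and the endoderm gate 3 CKO and 29 WT cells, so these were described in the larger library alone. Ungated cells numbered 32 in CKO and 54 in WT. Cells with just the 4 markers needed made up 14 of the CKO and 24 of the WT progenitor-gated cells, and 23 of 49 CKO and 12 of 20 WT dual cells. Cells of the macrophage gate held macrophage markers at a median of 843 CPM (UMIs of a gene scaled to the summed UMIs of the cells, as counts per 1e6) in CKO and 3660 CPM in WT, beside progenitor markers at 1894 CPM in CKO and 1921 CPM in WT, and 16 of 20 CKO and 28 of 51 WT cells also passed a second gate. WT megakaryocyte-gated cells likewise had megakaryocyte markers at 438 CPM and progenitor markers at 832 CPM.

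After filtering, 841 CKO and 784 WT cells remained. They held 26898690 UMIs in CKO and 24128723 in WT, with medians per cell of 28268 in CKO and 28186.5 in WT. Only 1 barcode was shared by the libraries. Globin RNA was also counted in cells that should lack it, at a median of 2292 CPM in CKO and 330 CPM in WT stromal-gated cells, and its part in the results was not tested. Smarcc1 (ENSMUSG00000032481, chr9:110117708-110240178, plus strand, GRCm38), the targeted gene, had 24.0 CPM over all CKO cells and 94.9 CPM over all WT cells, a ratio of 0.253 (95% interval 0.232 to 0.276). CKO cells had 42.2 CPM in the progenitor gate, 10.4 in dual cells, 7.48 in the erythroid, 75.0 in the macrophage, 10.48 in the endothelium and 29.8 in the stromal gate. WT cells had 119 CPM in the progenitor gate, 156 in dual cells, 55.8 in the erythroid, 84.1 in the macrophage, 76.9 in the endothelium and 94.7 in the stromal gate. Smarcc1 was thus lower in CKO cells of each of these gates, but in macrophage-gated cells the ratio was 0.891 with an interval of 0.672 to 1.18. Intervals here and below cover the counting of UMIs within these libraries only. Differences between embryos, sorts or libraries cannot be told apart from the genotype, nor can a lower level per cell be told apart from fewer expressing cells within a gate.

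In GRCm38, Dnmt1 (ENSMUSG00000004099) lies at chr9:20907209-20959888 on the minus strand, Dnmt3a (ENSMUSG00000020661) at chr12:3806007-3914443 on the plus strand and Dnmt3b (ENSMUSG00000027478) at chr2:153649450-153687730 on the plus strand. Tet1 (ENSMUSG00000047146) lies at chr10:62804570-62908996, Tet2 (ENSMUSG00000040943) at chr3:133463679-133545139 and Tet3 (ENSMUSG00000034832) at chr6:83362373-83459084, all on the minus strand. RefSeq promoter windows of GRCm38.p6, from 250 bases before to 50 bases after an annotated start, were found for 6 of 6 genes and numbered 10. Those of Dnmt1, set against the cell cycle below, of Dnmt3b, set against cell type, and of Tet2, past 2-fold between genotypes in progenitors, are shown, on the gene's strand and 5′ to 3′, with matches to the E2F motif in capitals. Each covers the start of exon 1. The Dnmt1 window is the one of 3 that holds an E2F match (chr9:20952574-20952873, minus strand), the Dnmt3b window is at chr2:153649199-153649498 (plus strand) and the Tet2 window at chr3:133544341-133544640 (minus strand).
Dnmt1: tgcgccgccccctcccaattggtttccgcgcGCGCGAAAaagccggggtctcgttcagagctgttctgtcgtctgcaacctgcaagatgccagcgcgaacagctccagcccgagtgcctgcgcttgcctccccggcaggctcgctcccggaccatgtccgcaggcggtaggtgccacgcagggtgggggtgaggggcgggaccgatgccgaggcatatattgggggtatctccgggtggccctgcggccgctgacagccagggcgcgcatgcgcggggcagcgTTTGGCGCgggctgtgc
Dnmt3b: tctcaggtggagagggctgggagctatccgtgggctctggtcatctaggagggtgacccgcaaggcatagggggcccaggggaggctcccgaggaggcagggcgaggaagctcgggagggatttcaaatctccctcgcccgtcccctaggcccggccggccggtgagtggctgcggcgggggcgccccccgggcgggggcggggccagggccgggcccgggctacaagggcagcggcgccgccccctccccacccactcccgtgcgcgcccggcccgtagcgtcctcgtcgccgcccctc
Tet2: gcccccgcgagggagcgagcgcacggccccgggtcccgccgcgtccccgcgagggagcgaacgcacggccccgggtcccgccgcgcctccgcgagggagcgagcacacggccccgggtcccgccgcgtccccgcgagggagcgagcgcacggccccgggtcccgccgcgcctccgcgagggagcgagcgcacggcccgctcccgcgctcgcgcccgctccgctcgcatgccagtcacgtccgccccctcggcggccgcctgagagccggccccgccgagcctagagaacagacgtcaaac

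The printed Dnmt1 window holds 33 CpG pairs, that of Dnmt3b 30 and that of Tet2 57, against a median of 7 over 32851 RefSeq windows of the same length. The other windows held 46, 47 and 18 for Dnmt3a, 17 for Tet1, 22 for Tet3, and 2 and 12 for the remaining starts of Dnmt1. Motifs were searched on both strands as plain letters. E2F was TTTCGCGC, TTTGGCGC, TTTCCCGC or TTTGCCGC, and matched in 1 of the 10 windows, at 219 bases before (opposite strand) and 33 bases after the Dnmt1 start, against 2.26% of all windows. The GATA motif AGATAA, the RUNX motif TGTGGT and the ETS motif CCGGAAGT matched in 0 of 10, against 11.2%, 16.8% and 3.89% of all windows. CCAAT matched in 3 of 10 (2 of Dnmt1 and that of Tet3), against 37.4%. These matches describe letters and not sites that were bound.

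Dnmt1, the maintenance enzyme, was seen in every gate of 20 or more cells. In CKO cells it was highest in macrophage-gated (91.4 CPM, 95% interval 74.4 to 111), progenitor-gated (85.9 CPM, 76.8 to 95.8), megakaryocyte-gated (82.9 CPM, 68.2 to 99.7) and dual cells (80.5 CPM, 68.6 to 93.9), 4 gates whose intervals overlap. Endothelium-gated cells followed with 60.9 CPM (49.2 to 74.6), then stromal-gated cells with 43.9 CPM (39.0 to 49.2) and erythroid-gated cells with 31.7 CPM (28.2 to 35.4). In WT cells the order was progenitor-gated (101 CPM, 93.5 to 109), dual (95.3 CPM, 76.5 to 117), endothelium-gated (76.9 CPM, 58.9 to 98.8), macrophage-gated (68.1 CPM, 56.4 to 81.5), stromal-gated (47.4 CPM, 41.9 to 53.5), endoderm-gated (45.0 CPM, 31.3 to 62.6) and erythroid-gated (37.9 CPM, 32.9 to 43.4). On the CPM scale erythroid-gated cells were thus lowest in both libraries, clear of the other gates in CKO, but in WT with an interval that overlapped those of stromal- and endoderm-gated cells. Progenitor-gated over erythroid-gated cells, Dnmt1 was 2.71-fold higher in the CKO library and 2.66-fold higher in the WT library. Median depths were 38258 UMIs in CKO and 41973 in WT progenitor-gated cells, and 34898 in CKO and 33015.5 in WT erythroid-gated cells. Globins alone took a median of 28.0% of UMIs in CKO and 31.0% in WT erythroid-gated cells. Over UMIs outside globin, mitochondrial and ribosomal protein genes, Dnmt1 was at 131 in CKO and 148 in WT progenitor-gated cells, and at 71.1 in CKO and 90.5 in WT erythroid-gated cells, so progenitors remained above erythroid-gated cells. On that scale erythroid-gated cells were no longer lowest: stromal-gated cells had 61.9 in CKO and 65.6 in WT, and WT endoderm-gated cells 58.5.

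Dnmt3b, a de novo enzyme, varied widely across gates. CKO levels were 247 CPM (226 to 270) in dual cells, 175 CPM (161 to 188) in progenitor-gated cells, 102 CPM (84.3 to 123) in macrophage-gated cells, 89.5 CPM (74.3 to 107) in megakaryocyte-gated cells and 49.1 CPM (38.6 to 61.6) in endothelium-gated cells. Erythroid-gated CKO cells had 7.17 CPM (5.57 to 9.07) and stromal-gated CKO cells 6.53 CPM (4.74 to 8.76). WT levels were 168 CPM (143 to 197) in dual cells, 137 CPM (128 to 146) in progenitor-gated cells, 45.8 CPM (36.3 to 57.0) in macrophage-gated cells, 35.3 CPM (23.5 to 51.1) in endothelium-gated cells, 10.6 CPM (8.04 to 13.6) in stromal-gated cells, 7.71 CPM (2.83 to 16.8) in endoderm-gated cells and 2.55 CPM (1.40 to 4.28) in erythroid-gated cells. Dual and progenitor-gated cells stood clear of all other gates in both libraries, and stromal- and erythroid-gated cells, with endoderm-gated ones in WT, were lowest. Of the 28 WT endothelium-gated UMIs, 16 came from 1 cell, and 1 CKO megakaryocyte-gated cell held 40 of 121, so those levels rest largely on single cells. In macrophage-gated CKO cells, 1 cell held 27 of 112.

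Set against progenitor-gated cells of the same library, erythroid-gated cells held far less Dnmt3b: the progenitor level was 24.4-fold higher in CKO (95% interval 19.0 to 31.7) and 53.6-fold higher in WT (31.8 to 98.4). Progenitors stood 26.7-fold above stromal-gated cells in CKO (19.7 to 37.2) and 12.96-fold in WT (9.95 to 17.2), and 3.55-fold above endothelium-gated cells in CKO and 3.87-fold in WT. On the same CPM scale Dnmt1, Dnmt3a (10.48-fold in CKO and 8.33-fold in WT) and Tet3 (2.39-fold in CKO and 2.17-fold in WT) also stood over 2-fold higher in progenitor-gated than in erythroid-gated cells, as did 38.4% of all measured genes in CKO and 49% in WT. Without globin, mitochondrial and ribosomal protein UMIs, Dnmt1 and Tet3 were under 2-fold: Tet3 then had 24.2 in CKO and 27.8 in WT progenitor-gated cells, and 14.9 in CKO and 20.9 in WT erythroid-gated cells. On the CPM scale Tet2 was also higher in progenitor-gated cells in CKO, 10.2-fold (3.72 to 34.8) from 20 and 5 UMIs. So was Tet1 in WT, with 30 progenitor and 0 erythroid UMIs. Tet1 in CKO and Tet2 in WT had under 20 UMIs over both gates and were not compared. Between progenitor- and stromal-gated cells, Dnmt3a (2.01-fold) and Dnmt3b were over 2-fold higher in CKO, where 15.3% of genes were, and Dnmt1 (2.13-fold) and Dnmt3b in WT, where 15.8% of genes were. Tet1 in WT lay at the 2-fold limit on the lower side (0.49998), past which 24.5% of genes were lower. Within progenitor-gated cells of the WT library, the 28 cells with Klf1, Gata1 and Epor RNA and little Mpo and Prtn3 (erythroid-primed) had 54.2 CPM (42.5 to 68.1), between the 154 CPM of the 101 myeloid-primed cells and the 2.55 CPM of erythroid-gated cells. Only 3 CKO cells were erythroid-primed, and their level is not given.

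At least 1 Dnmt3b UMI was found in 92.5% of CKO and 91.1% of WT progenitor-gated cells, against 19.9% of CKO and 9.09% of WT erythroid-gated cells and 13.7% of CKO and 22.2% of WT stromal-gated cells. With each cell thinned to 10000 UMIs, which leaves out 45 CKO and 74 WT cells over the libraries, the shares were 69.9% in CKO and 72.7% in WT progenitor-gated cells, 6.53% in CKO and 0.709% in WT erythroid-gated cells, and 6.61% in CKO and 9.01% in WT stromal-gated cells. The WT erythroid share was the lowest of the 3 gates, and no floor from cells known to lack this RNA was measured. The part of free RNA in these shares was not tested.

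Dnmt3a, the other de novo enzyme, followed a different order. CKO levels were 52.3 CPM (45.2 to 60.1) in progenitor-gated, 46.2 CPM (37.3 to 56.6) in dual, 32.9 CPM (23.1 to 45.6) in macrophage-gated, 32.5 CPM (23.7 to 43.7) in megakaryocyte-gated, 26.0 CPM (22.2 to 30.1) in stromal-gated, 21.6 CPM (14.9 to 30.3) in endothelium-gated and 4.98 CPM (3.67 to 6.61) in erythroid-gated cells. WT levels were highest in endoderm-gated cells, at 84.8 CPM (65.6 to 108). The other WT gates had 40.6 CPM (31.7 to 51.3) in macrophage-gated, 37.9 CPM (26.4 to 52.7) in dual, 34.9 CPM (30.7 to 39.7) in progenitor-gated, 31.5 CPM (20.4 to 46.5) in endothelium-gated and 29.5 CPM (25.2 to 34.4) in stromal-gated cells. The intervals of these 5 WT gates overlapped, 14 of the 36 CKO macrophage-gated UMIs came from 1 cell, and erythroid-gated WT cells stood below them at 4.19 CPM (2.66 to 6.29). Endoderm-gated WT cells were 2.87-fold above stromal-gated WT cells (2.12 to 3.84), a contrast in which 43.4% of genes differed by over 2-fold either way.

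**Figure D1:**
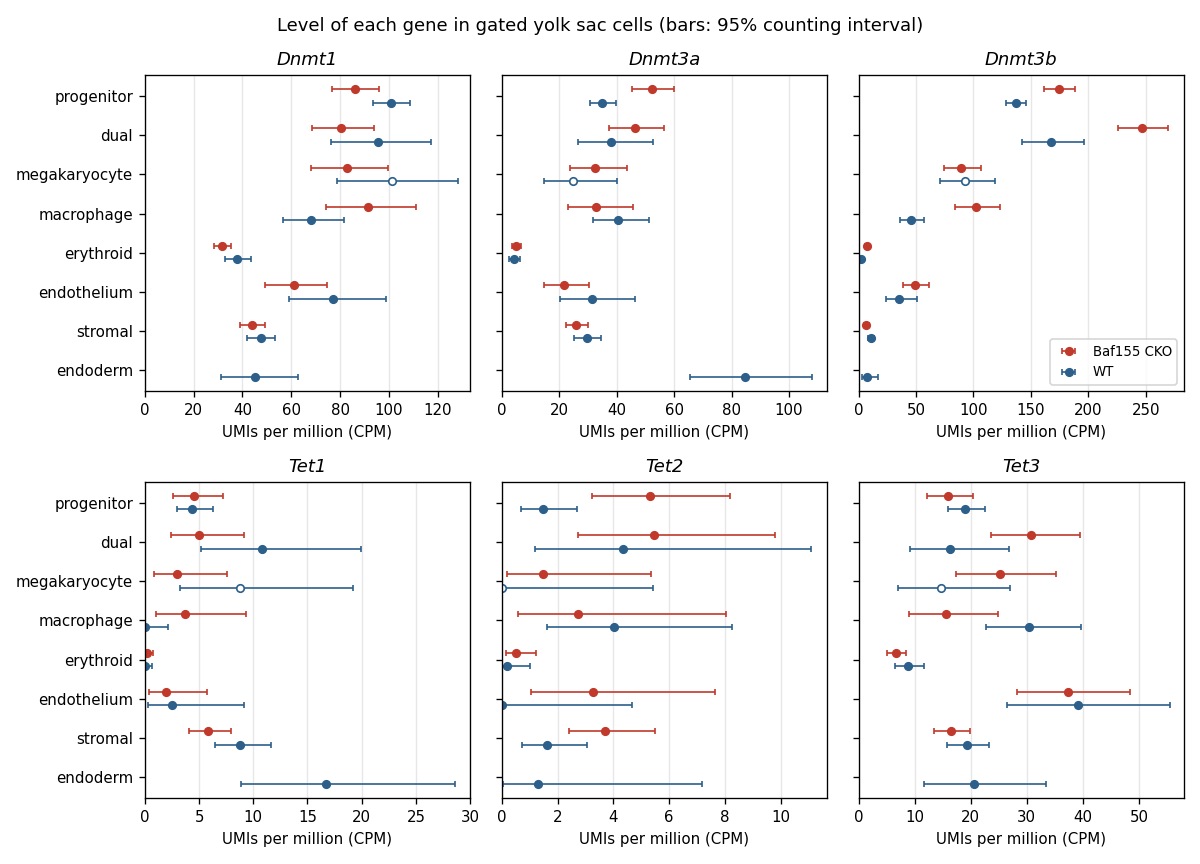
UMI level (CPM, linear axis, with 95% Poisson intervals) of each of the 6 genes in each gate, CKO in red beside WT in blue. The open symbol marks a gate of under 20 cells, and gates of under 10 cells are not drawn. Dnmt3b reaches 247 CPM in CKO dual cells and 2.55 CPM in WT erythroid-gated cells.

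The balance of UMIs between the de novo genes differed between cell types; it compares gates, not the RNA amounts of both genes. Dnmt3b made up 77.0% of Dnmt3a and Dnmt3b UMIs in CKO and 79.7% in WT progenitor-gated cells, and 84.2% in CKO and 81.6% in WT dual cells. In stromal-gated cells its share was 20.1% in CKO (95% interval 14.99 to 26.0) and 26.3% in WT (20.7 to 32.6), and in WT endoderm-gated cells it was 8.33% (3.12 to 17.3). The Dnmt3b share was therefore higher in blood progenitors than in stromal-gated cells of both libraries, with intervals far apart. Endothelium-gated cells lay between them, with 69.4% in CKO (59.8 to 77.9) and 52.8% in WT (38.6 to 66.7). A single WT cell of the endothelium gate held 16 of its 28 Dnmt3b UMIs, so the WT share rests largely on that cell. Macrophage-gated cells had 75.7% in CKO (67.9 to 82.3) and 53.0% in WT (44.7 to 61.1), intervals that do not overlap. Single CKO cells of that gate held 27 of the 112 Dnmt3b UMIs and 14 of the 36 Dnmt3a UMIs. Erythroid-gated cells had 59.0% in CKO (49.5 to 68.0) and 37.8% in WT (22.5 to 55.2), and these intervals do.

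**Figure D2:**
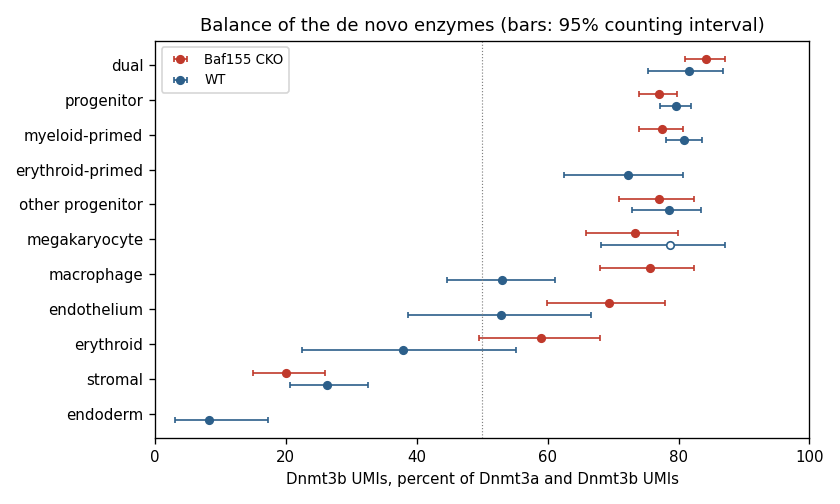
Share of Dnmt3b among Dnmt3a and Dnmt3b UMIs in each gate, with exact binomial 95% intervals, CKO in red above WT in blue and the same open symbol for a gate of under 20 cells. Progenitor-gated and dual cells sit at 77.0% to 84.2% in both libraries, stromal-gated cells at 20.1% in CKO and 26.3% in WT.

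RNA of both genes was found in single cells of the progenitor gate. After thinning to 10000 UMIs, 25.8% of CKO and 26.7% of WT progenitor-gated cells had UMIs of both, 9.68% of CKO and 6.83% of WT cells had Dnmt3a alone, and 44.1% of CKO and 46.0% of WT cells had Dnmt3b alone. Stromal-gated cells had Dnmt3a alone in 20.6% of CKO and 22.1% of WT cells, Dnmt3b alone in 6.23% of CKO and 6.76% of WT cells, and neither in 72.8% of CKO and 68.9% of WT cells. In WT endoderm-gated cells 48.1% had Dnmt3a alone and 3.70% Dnmt3b alone. These patterns per cell follow the sums by gate. The antisense genes Dnmt3aos and Dnmt3bos, which overlap the de novo genes, had 1 and 0 UMIs in CKO and 0 and 0 in WT.

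The 3 TET genes gave 584 UMIs in CKO and 594 in WT cells, of which Tet3 made up 72.6% in CKO and 72.1% in WT. Tet3, the family member that also oxidises the paternal genome of the zygote, was highest in endothelium-gated cells, with 37.3 CPM in CKO (28.3 to 48.4) and 39.1 CPM in WT (26.6 to 55.5). These intervals overlapped those of dual and megakaryocyte-gated cells in CKO, and of macrophage-gated, endoderm-gated and dual cells in WT. CKO dual cells had 30.8 CPM (23.6 to 39.5), megakaryocyte-gated 25.2 CPM (17.4 to 35.1), stromal-gated 16.5 CPM (13.5 to 19.8), progenitor-gated 15.9 CPM (12.1 to 20.5), macrophage-gated 15.5 CPM (9.06 to 24.9) and erythroid-gated 6.65 CPM (5.12 to 8.49). WT macrophage-gated cells had 30.3 CPM (22.7 to 39.7), endoderm-gated 20.6 CPM (11.7 to 33.4), stromal-gated 19.3 CPM (15.9 to 23.4), progenitor-gated 19.0 CPM (15.9 to 22.6), dual 16.2 CPM (9.09 to 26.8) and erythroid-gated 8.75 CPM (6.45 to 11.6). Endothelium exceeded stroma by 2.27-fold in CKO (1.62 to 3.15) and 2.02-fold in WT (1.31 to 3.04), in contrasts where 31% of genes in CKO and 31.2% in WT differed by over 2-fold. Progenitors stood at 0.426 of the endothelial level in CKO (0.292 to 0.624) and 0.486 in WT (0.326 to 0.744), the opposite side from Dnmt3b. In that contrast 23.2% of genes in CKO and 39.1% in WT passed 2-fold either way.

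Tet1, known for its role in pluripotent and germ cells, was barely seen in erythroid cells and present in stroma. Stromal-gated cells had 5.78 CPM in CKO (4.11 to 7.91, 39 UMIs) and 8.77 CPM in WT (6.49 to 11.6, 49 UMIs), and WT endoderm-gated cells 16.7 CPM (8.90 to 28.6, 13 UMIs). Progenitor-gated cells had 4.51 CPM in CKO (17 UMIs) and 4.39 CPM in WT (30 UMIs). Dual cells had 4.97 CPM in CKO and 10.8 CPM in WT, from 10 UMIs each. The ratio of the progenitor over the stromal level was 0.780 in CKO (0.414 to 1.41), and in WT 0.49998 (0.306 to 0.803). Erythroid-gated cells had 2 UMIs in CKO and 0 in WT, where 3 UMIs would make 0.547 CPM. WT progenitors primed for the erythroid fate also had 0 Tet1 UMIs, where 3 would make 2.23 CPM, and WT ungated cells had 17.7 CPM (11.2 to 26.6, 23 UMIs).

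Tet2, a gene often mutated in human blood disease, gave 73 UMIs in all CKO and 33 in all WT cells. Progenitor-gated cells had 5.31 CPM in CKO (3.24 to 8.19, 20 UMIs) and 1.46 CPM in WT (0.701 to 2.69, 10 UMIs). Stromal-gated cells had 3.71 CPM in CKO (2.40 to 5.47, 25 UMIs) and 1.61 CPM in WT (0.737 to 3.06, 9 UMIs). In each of these pairs the CKO level was the higher. CKO cells had 5 UMIs in the erythroid gate, 11 in dual cells, 3 in the macrophage and 5 in the endothelium gate, against WT cells with 1 in the erythroid gate, 4 in dual cells, 7 in the macrophage and 0 in the endothelium gate. At these numbers the levels of most gates cannot be ordered, though CKO progenitor-gated cells stood above CKO erythroid-gated ones (10.2-fold, 3.72 to 34.8).

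Set side by side over all cells, 0 of 6 genes differed by 2-fold between CKO and WT, where 13.5% of 13587 measured genes did. The ratio of CKO over WT was 0.805 for Dnmt1 (95% interval 0.749 to 0.865), 0.844 for Dnmt3a (0.757 to 0.941), 1.03 for Dnmt3b (0.959 to 1.11), 0.587 for Tet1 (0.443 to 0.775), 1.98 for Tet2 (1.30 to 3.09) and 0.889 for Tet3 (0.775 to 1.02). Because the libraries held different shares of each cell type, the values within a gate are given next.

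In progenitor-gated cells, Tet2 was the only member over 2-fold higher and 0 were over 2-fold lower, against 7.86% and 4.2% of 10022 measured genes. Tet2 had 5.31 CPM in CKO and 1.46 CPM in WT, a ratio of 3.63 (1.62 to 8.68), with a UMI in 17.2% of CKO and 5.95% of WT cells (medians 38258 and 41973 UMIs), against 1.92% of CKO and 0.649% of WT erythroid-gated cells. Thinned to 10000 UMIs, the progenitor shares were 5.38% in CKO and 2.48% in WT, with overlapping intervals of 1.77 to 12.1 and 0.681 to 6.24. Of the 20 CKO UMIs, 18 lay in the 58 cells with few S phase UMIs, where the ratio was 4.17 (1.37 to 17.0). Dnmt3a had 52.3 CPM in CKO and 34.9 CPM in WT, a ratio of 1.495 (1.23 to 1.81), but with cells thinned to 10000 UMIs it was 1.07. Dnmt3b had 175 CPM in CKO and 137 CPM in WT, a ratio of 1.28 (1.15 to 1.41). In myeloid-primed cells the Dnmt3b ratio was 1.14 (1.01 to 1.28), and in progenitor-gated cells primed for neither fate 1.08 (0.877 to 1.33). Dnmt3a had 1.40 (1.11 to 1.77) and 1.18 (0.792 to 1.77) in the same sets. Erythroid-primed cells, lower in Dnmt3b in WT, numbered 28 in WT and 3 in CKO. The part of this in the ratios was not tested. Dnmt1 had 85.9 CPM in CKO and 101 CPM in WT, a ratio of 0.852 (0.744 to 0.974). With Dnmt3a and Dnmt3b both higher in CKO, its share of methyltransferase UMIs was 27.5% in CKO and 37.0% in WT. Neither Tet1 at 1.03 (0.532 to 1.92) nor Tet3 at 0.837 (0.606 to 1.15) had an interval that left out 1.

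Dual cells showed 0 members over 2-fold higher and 1 lower, Tet1, against 8.11% and 5.26% of genes. It rested on 10 UMIs in each library, at 4.97 CPM in CKO and 10.8 CPM in WT (ratio 0.459, 0.171 to 1.23). Dnmt3b had 247 CPM in CKO and 168 CPM in WT (1.47, 1.23 to 1.77), and Tet3 30.8 CPM in CKO and 16.2 CPM in WT (1.90, 1.07 to 3.59). Both were higher in CKO with intervals above 1. Endothelium markers in these cells were at a median of 1128 CPM in CKO and 461 CPM in WT, and the part of this in the ratios was not tested. Over the settings tried the Dnmt3b ratio ranged from 0.961, in cells with a high S phase share, to 1.96, in those with a low one. The Tet3 ratio was 3.82 with 5 markers needed instead of 4, and 1.02 with cells thinned to 10000 UMIs.

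Erythroid-gated cells had 1 member over 2-fold higher, Dnmt3b, against 12.8% of genes, and 0 lower, against 2.6%. Dnmt3b had 7.17 CPM in CKO (69 UMIs) and 2.55 CPM in WT (14 UMIs), a ratio of 2.81 (1.57 to 5.40). Dnmt1 had 31.7 CPM in CKO and 37.9 CPM in WT, a ratio of 0.835 (0.698 to 1.00). The median log2 ratio of all measured genes in this gate was 0.23. Set against the typical gene, Dnmt1 thus stood further below, and Dnmt3b less far above, than their ratios alone show. Stromal markers in the same cells were at a median of 76.5 CPM in CKO and 0 CPM in WT. Endothelium markers, summed over the gate, were at 19.5 CPM in CKO and 2.74 CPM in WT. The part of free RNA in the Dnmt3b ratio was not tested. Progenitor markers were at a median of 87.1 CPM in CKO and 55.9 CPM in WT, and 11 CKO and 0 WT cells also passed another gate. Without those 11 cells, Dnmt3b was at 6.47 CPM in CKO and 2.55 CPM in WT (2.53, 1.40 to 4.91). Within cells of 20% to 35% globin it was at 6.18 CPM in 187 CKO cells and 2.26 CPM in 115 WT cells (2.74, 1.32 to 6.40). The CKO level was also the higher one in each of these narrower sets. Below 20% globin, 37 CKO cells had 14.7 CPM and 5 WT cells 17.4 CPM from 2 UMIs (0.846, 0.207 to 7.44). At 10000 UMIs per cell the ratio was 10.4, from 18 CKO UMIs and 1 WT UMI.

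Macrophage-gated cells had Dnmt3b over 2-fold higher, against 6.61% of genes, and 0 members over 2-fold lower, against 6.93%. Dnmt3b had 102 CPM in CKO and 45.8 CPM in WT (2.24, 1.66 to 3.02), Dnmt1 91.4 CPM in CKO and 68.1 CPM in WT (1.34, 1.02 to 1.77), and Tet3 15.5 CPM in CKO and 30.3 CPM in WT (0.512, 0.278 to 0.899). Tet1 had 4 UMIs in CKO and 0 in WT. Of the 112 CKO Dnmt3b UMIs, 27 came from 1 cell. Y-positive cells made up 17 of 20 in CKO and 25 of 51 in WT, and the part of this in the ratios was not tested. The gate held cells that passed it alone and cells that also passed another gate, and Dnmt3b differed between them. Cells that also passed a second gate had 115 CPM in CKO (16 cells) and 65.2 CPM in WT (28 cells), a ratio of 1.76 (1.30 to 2.39). Cells that passed the macrophage gate alone had 0 UMIs in 4 CKO cells and 9.79 CPM in 23 WT cells. When each cell took the most common gate of its cluster, 9 CKO and 41 WT cells remained and the Dnmt3b ratio was 1.14. With markers counted at 1 UMI it was 1.16, and with 5 markers needed it was 4.04.

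In endothelium-gated cells 0 of 4 measured members passed 2-fold, against 15.1% of genes. Dnmt3b had 49.1 CPM in CKO and 35.3 CPM in WT (1.39, 0.890 to 2.23), Dnmt1 60.9 CPM in CKO and 76.9 CPM in WT (0.792, 0.567 to 1.11), Dnmt3a 21.6 CPM in CKO and 31.5 CPM in WT (0.685, 0.395 to 1.20) and Tet3 37.3 CPM in CKO and 39.1 CPM in WT (0.955, 0.606 to 1.53). All 4 intervals include 1. Dnmt3b was at 45.9 CPM in CKO and 61.0 CPM in WT Xist-positive cells (0.752, 0.409 to 1.41). In Y-positive cells it was at 56.0 CPM in CKO (40 UMIs) and 7.34 CPM in WT (2 UMIs), a ratio of 7.64 (1.98 to 65.2). Of the 19 UMIs in WT Xist-positive cells, 16 came from 1 cell, so the turn with sex rests largely on that cell. Over the settings tried the Dnmt3b ratio ranged from 0.647 to 7.64. The median depth was 25569 UMIs in CKO and 13162 in WT.

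Stromal-gated cells had Tet2 over 2-fold higher, against 6.3% of genes, and 0 members over 2-fold lower, against 3.53%. Tet2 had 3.71 CPM in CKO and 1.61 CPM in WT (2.30, 1.04 to 5.60). Dnmt3b had 6.53 CPM in CKO and 10.6 CPM in WT (0.618, 0.408 to 0.928). By rising S phase share (18 S phase genes, cells divided at the tertiles of WT cells) its ratio was 0.320 (0.152 to 0.648), 0.859 (0.434 to 1.70) and 1.02 (0.429 to 2.35), so the lower CKO level was measured in cells with a low share. The remaining intervals included 1: Tet1 was at 0.659 (0.422 to 1.02), Tet3 at 0.851 (0.647 to 1.12), Dnmt3a at 0.879 (0.706 to 1.09) and Dnmt1 at 0.925 (0.781 to 1.10). Among stromal cells, the mesothelial ones (118 in CKO and 104 in WT, with RNA of Upk3b, Upk1b and Msln) had Dnmt1 at 36.4 CPM in CKO and 48.0 CPM in WT (0.760, 0.583 to 0.988) and Tet1 at 5.58 CPM in CKO and 11.0 CPM in WT (0.506, 0.261 to 0.951). Both were lower in CKO mesothelial cells, while in the other stromal cells that are not smooth muscle Dnmt1 had 50.4 CPM in CKO and 43.8 CPM in WT (1.15, 0.905 to 1.47) and Tet1 6.10 CPM in CKO and 7.31 CPM in WT (0.834, 0.431 to 1.63).

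**Figure D3:**
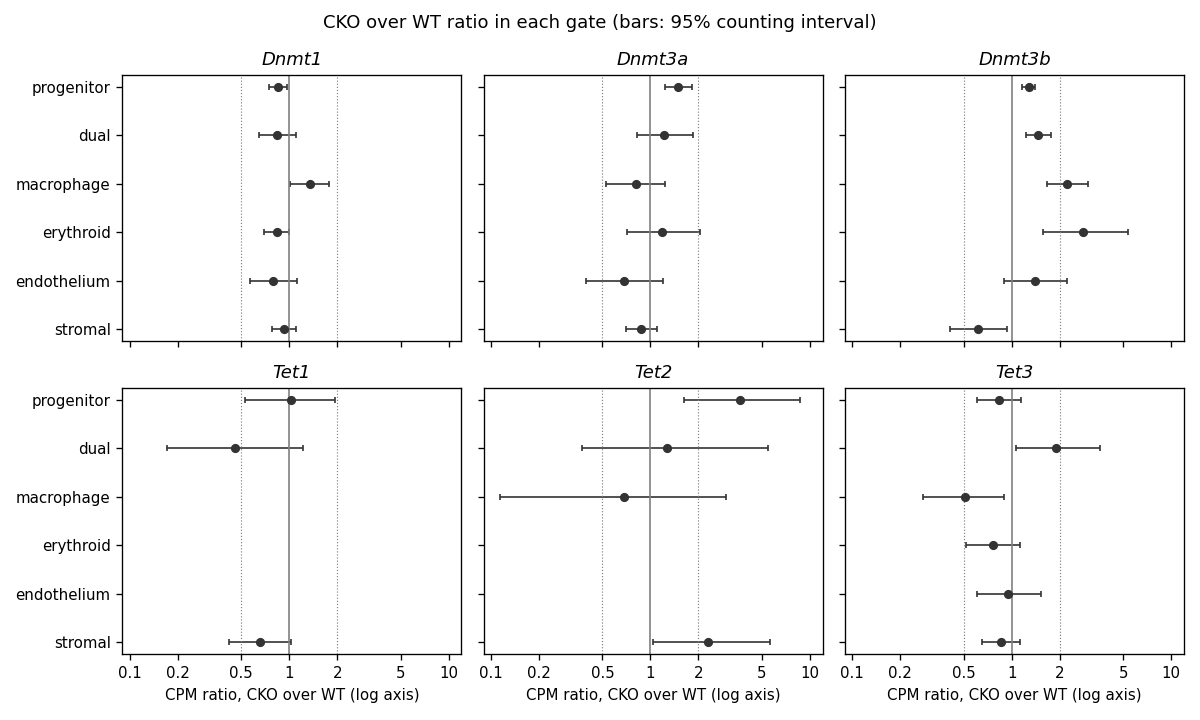
Ratio of CKO over WT CPM (log axis, with 95% counting intervals) for each gene in each gate with at least 20 cells in both libraries; dotted lines mark 2-fold, and genes with 0 UMIs in a library or under 10 in both are not drawn. Dnmt3b lies above 1 in progenitor-gated (1.28), dual (1.47), macrophage-gated (2.24) and erythroid-gated (2.81) cells and below 1 in stromal-gated cells (0.618).

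Dnmt1 acts at replication, and its RNA was set against the S phase list (18 genes such as Mcm5, Rrm2 and Tyms). Cells of a gate were divided at the tertiles of WT cells in the share of UMIs from that list. In stromal-gated cells, Dnmt1 was at 23.9, 59.7 and 68.3 CPM in CKO and at 36.7, 44.7 and 60.5 CPM in WT, by rising S phase share. The lowest and highest intervals did not overlap in either library, with 18.9 to 29.8 against 54.5 to 84.4 in CKO and 28.2 to 46.9 against 49.8 to 72.7 in WT. In progenitor-gated cells the same order of share gave 79.2, 94.3 and 97.6 CPM in CKO and 90.7, 105 and 105 CPM in WT, with overlapping intervals. Erythroid-gated cells gave 20.7, 30.0 and 33.4 CPM in CKO and 36.0, 32.3 and 45.2 CPM in WT. The CKO stromal-gated cells were spread unevenly, at 155, 83 and 40 cells against 81 in each WT set, and their median S phase share was 0.130% against 0.179% in WT. CKO progenitor-gated cells numbered 58, 21 and 14 by rising share, against 56 in each WT set. Erythroid-gated cells went the other way, at 34, 45 and 182 in CKO against 51, 51 and 52 in WT, with a median share of 0.163% in CKO and 0.115% in WT.

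**Figure D4:**
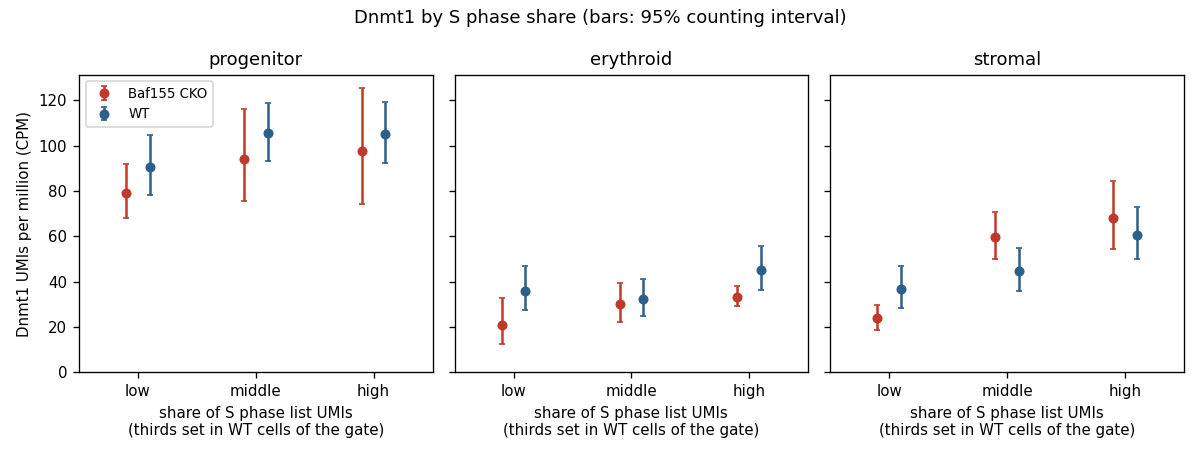
Dnmt1 CPM with 95% Poisson intervals in progenitor-, erythroid- and stromal-gated cells, divided by the share of S phase UMIs at the tertiles of the WT cells of the gate, CKO in red left of WT in blue. In stromal-gated cells Dnmt1 stands at 23.9 CPM in the lowest and 68.3 CPM in the highest CKO set, and at 36.7 and 60.5 CPM in the WT sets.

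The CKO difference in Dnmt3b of progenitors varied with the same division. By rising S phase share, Dnmt3b had 157, 173 and 241 CPM in CKO and 165, 116 and 134 CPM in WT. The ratios were 0.952 (0.817 to 1.11), 1.49 (1.22 to 1.81) and 1.80 (1.47 to 2.19). The higher CKO level was therefore measured in cells with middle and high S phase shares, which were 35 of the 93 CKO cells, and not in those with a low share. Dual cells, divided at the WT median share, went the other way, with ratios of 1.96 at a low and 0.961 at a high share. No test compared these ratios.

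Embryos of both sexes were pooled, and cells with Xist and no Y-linked RNA could be told from cells with the reverse. In progenitor-gated cells, Dnmt3b was at 234 CPM in 33 CKO and 145 CPM in 83 WT Xist-positive cells (1.62, 1.40 to 1.87), and at 130 CPM in 45 CKO and 135 CPM in 70 WT Y-positive cells (0.961, 0.816 to 1.13). A ratio above 1 was thus measured in Xist-positive and not in Y-positive cells. Smarcc1 in the same cells was at 14.4 CPM in CKO and 122 CPM in WT Xist-positive cells, and at 62.7 CPM in CKO and 115 CPM in WT Y-positive cells. Smarcc1 RNA was therefore more abundant in Y-positive than in Xist-positive CKO progenitors. Dual cells had Dnmt3b ratios of 1.75 (1.37 to 2.25) in Xist-positive and 1.17 (0.852 to 1.63) in Y-positive cells, of which WT held 6. Erythroid-gated cells had 2.87 (1.22 to 8.24) in Xist-positive and 2.44 (0.895 to 7.68) in Y-positive cells. In stromal-gated cells the Dnmt3b ratio was 1.03 (0.552 to 1.96) in Xist-positive and 0.406 (0.201 to 0.777) in Y-positive cells. Dnmt1 of progenitors had 93.2 CPM in CKO and 96.9 CPM in WT Xist-positive cells (0.962, 0.775 to 1.19), and 76.9 CPM in CKO and 99.96 CPM in WT Y-positive cells (0.769, 0.626 to 0.942). The Dnmt1 interval was below 1 in Y-positive cells, where that of Dnmt3b included 1. Dnmt3a of progenitors had 1.55 (1.15 to 2.07) in Xist-positive and 1.48 (1.10 to 1.98) in Y-positive cells, above 1 in both. Tet2 had 3.77 (0.893 to 18.1) in Xist-positive and 3.10 (1.05 to 10.2) in Y-positive cells, and Tet3 0.433 (0.197 to 0.854) in Xist-positive and 1.01 (0.653 to 1.54) in Y-positive cells. Sex and embryo cannot be told apart here.

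Smarcc1 RNA was also used to divide the CKO progenitors themselves. Dnmt3b was at 188 CPM (166 to 212) in the 41 CKO cells with 0 Smarcc1 UMIs and at 166 CPM (150 to 184) in the 52 with 1 or more, and Dnmt3a at 60.9 CPM (48.7 to 75.2) and 47.1 CPM (38.7 to 56.7). Dnmt1 was at 82.8 CPM and 87.8 CPM, and Tet2 at 7.08 CPM and 4.24 CPM, from 10 UMIs each. All 4 pairs of intervals overlap. Cells with 0 Smarcc1 UMIs were shallower, at a median of 31727 UMIs against 43308. Dual cells had Dnmt3b at 248 CPM without and 244 CPM with Smarcc1 UMIs.

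Partners of the enzymes were described by lists of the maintenance machinery, of de novo partners and silencing factors, of methyl-CpG readers, of oxidation partners and base removal, and of methyl donor and 2-oxoglutarate supply. In progenitor-gated cells 0 of 7 measured maintenance genes passed 2-fold in either direction, against 7.86% of all genes higher and 4.2% lower. Their median log2 ratio was 0.12 against 0.03 over all genes. Uhrf1, which guides Dnmt1, had 102 CPM in CKO and 85.1 CPM in WT (1.20, 1.06 to 1.37), while the chromatin remodeller Hells had 121 CPM in CKO and 198 CPM in WT (0.610, 0.547 to 0.679) and the replication clamp gene Pcna 138 CPM in CKO and 127 CPM in WT (1.09, 0.973 to 1.21). In erythroid-gated cells 2 of 7 were over 2-fold higher and 0 lower, against 12.8% and 2.6% of all measured genes, with a median of 0.75 against 0.23 over all genes. They were Pcna, with 169 CPM in CKO and 68.7 CPM in WT (2.47, 2.20 to 2.76), and the Dnmt1-associated gene Dmap1, with 21.6 CPM in CKO and 10.2 CPM in WT (2.12, 1.57 to 2.89). Uhrf1 there had 53.6 CPM in CKO and 28.3 CPM in WT (1.90, 1.58 to 2.28). The list had 6 of 7 measured genes above 1, as had 17 of 18 S phase genes, in a gate where the median gene was also above 1. The share of all genes above 1 was not counted. The interval of Dnmt1 itself included 1. S phase genes of the same gate had a median of 0.40, with 3 of 18 over 2-fold higher, again against 12.8% of all genes (Mcm5 at 2.35, Chaf1b at 2.14 and Mcm4 at 2.04), and their part in this was not tested. In progenitor-gated cells 1 of 18 was over 2-fold lower, against 4.2% of all genes. It was the ribonucleotide reductase gene Rrm2, with 123 CPM in CKO and 258 CPM in WT (0.475, 0.428 to 0.527). Of the de novo partners, 0 of 4 in progenitor-gated cells passed 2-fold, against 7.86% of all genes higher and 4.2% lower, with a median of 0.19. Trim28, which recruits silencing complexes, had 294 CPM in CKO and 267 CPM in WT (1.10, 1.02 to 1.19), and the histone methyltransferase gene Ehmt2 37.7 CPM in CKO and 30.6 CPM in WT (1.23, 0.989 to 1.53). The co-factor gene Dnmt3l had 0 UMIs in CKO and 1 in WT over all cells.

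Mbd2, which encodes a methyl-CpG binding protein, was over 2-fold lower in CKO cells of 6 of 6 gates compared. It had 11.4 CPM in CKO and 49.1 CPM in WT progenitor-gated cells (0.232, 0.165 to 0.320), 8.72 CPM in CKO and 27.9 CPM in WT erythroid-gated cells (0.313, 0.237 to 0.411), and 16.5 CPM in CKO and 67.0 CPM in WT macrophage-gated cells (0.246, 0.141 to 0.406). It had 15.7 CPM in CKO and 101 CPM in WT endothelium-gated cells (0.156, 0.0944 to 0.248) and 15.1 CPM in CKO and 46.7 CPM in WT stromal-gated cells (0.324, 0.255 to 0.409). Dual cells had 11.9 CPM in CKO and 32.5 CPM in WT (0.367, 0.205 to 0.649). The intervals were below 1 in all 6. In Xist-positive progenitor-gated cells it was at 11.4 CPM in CKO and 46.8 CPM in WT, and in Y-positive ones at 13.1 CPM in CKO and 49.0 CPM in WT. Among 7 measured readers in progenitor-gated cells, Mbd2 was the 1 past 2-fold, where 4.2% of all genes were lower and 7.86% higher. The list median was -0.34. Mbd3, a subunit of the NuRD complex, had 182 CPM in CKO and 265 CPM in WT (0.685, 0.627 to 0.748).

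Among 8 measured oxidation partners and base removal genes, 2 were over 2-fold lower and 0 higher in progenitor-gated cells, against 4.2% and 7.86% of all genes, with a median of -0.26. They were the stress-response genes Gadd45g, with 19.6 CPM in CKO and 42.8 CPM in WT (0.458, 0.350 to 0.593), and Gadd45a, with 9.28 CPM in CKO and 19.3 CPM in WT (0.481, 0.322 to 0.703). The direction was the reverse in endothelium-gated cells for Gadd45g, with 173 CPM in CKO and 63.1 CPM in WT (2.74, 2.02 to 3.79), and in stromal-gated cells for Gadd45a, with 29.7 CPM in CKO and 10.6 CPM in WT (2.81, 2.09 to 3.82). Tdg, the glycosylase that removes oxidised bases, had 54.9 CPM in CKO and 68.4 CPM in WT progenitor-gated cells (0.802, 0.678 to 0.947). Ogt, the sugar transferase that binds TET proteins, had 54.1 CPM in CKO and 28.5 CPM in WT (1.90, 1.55 to 2.32), short of 2-fold. In macrophage-gated cells, Ogt had 45.7 CPM in CKO and 18.3 CPM in WT (2.496, 1.57 to 4.02), and Gadd45g 21.0 CPM in CKO and 57.2 CPM in WT (0.367, 0.223 to 0.583).

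Of 6 methyl donor and 2-oxoglutarate genes, 0 passed 2-fold in progenitor-gated cells, against 7.86% of all genes higher and 4.2% lower, with a median of -0.06. Ahcy, which clears the S-adenosylhomocysteine that methyltransferases release, had 58.9 CPM in CKO and 40.2 CPM in WT there (1.46, 1.22 to 1.75). It was over 2-fold higher in the other gates compared, with 52.2 CPM in CKO and 24.9 CPM in WT dual cells (2.09, 1.32 to 3.45), 28.1 CPM in CKO and 8.02 CPM in WT erythroid-gated cells (3.51, 2.54 to 4.94), 58.5 CPM in CKO and 21.8 CPM in WT macrophage-gated cells (2.69, 1.77 to 4.13), 35.4 CPM in CKO and 8.83 CPM in WT endothelium-gated cells (4.01, 1.82 to 10.4), and 44.6 CPM in CKO and 19.2 CPM in WT stromal-gated cells (2.33, 1.86 to 2.93). Its intervals were above 1 in 6 of 6 gates. Mat2a, which makes the methyl donor S-adenosylmethionine, lay on the other side in progenitor-gated cells, with 105 CPM in CKO and 177 CPM in WT (0.594, 0.529 to 0.666), and in macrophage-gated cells, with 77.7 CPM in CKO and 182 CPM in WT (0.427, 0.332 to 0.544). Idh2, a mitochondrial source of 2-oxoglutarate, had 245 CPM in CKO and 268 CPM in WT progenitor-gated cells (0.911, 0.841 to 0.987).

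**Figure D5:**
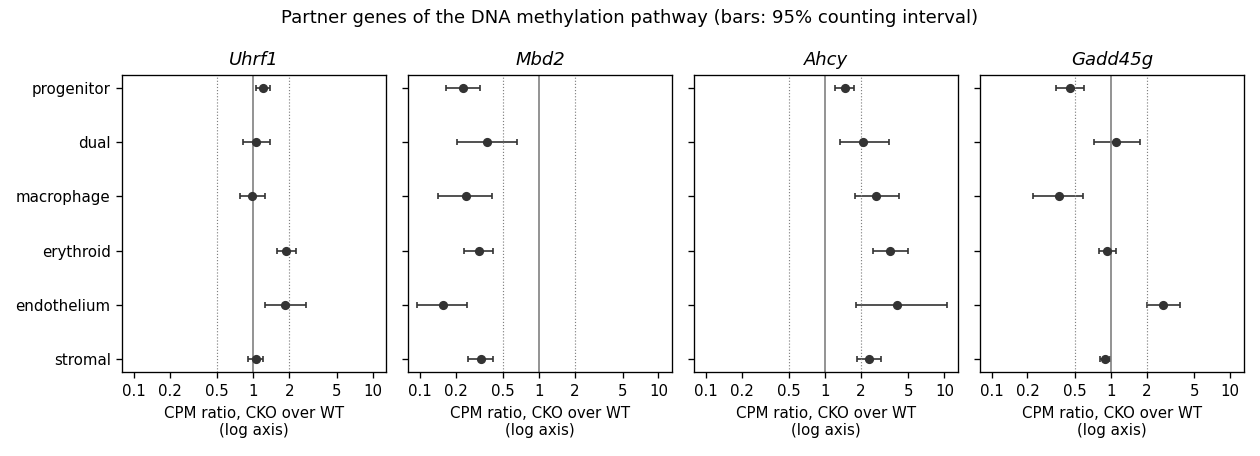
Ratio of CKO over WT CPM (log axis, with 95% counting intervals) for Uhrf1, Mbd2, Ahcy and Gadd45g in 6 gates, with dotted lines at 2-fold. Mbd2 lies below 0.5 in all 6, Ahcy above 1 in all 6, and Gadd45g on both sides.

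Germline genes, several of which are silenced by promoter methylation in somatic cells, were rarely seen in blood progenitors. Of 10 in the list, 5 had 0 UMIs in progenitor-gated cells of both libraries and 1 reached 20 UMIs. That gene, the X-linked homeobox gene Rhox5, had 9.55 CPM in CKO (36 UMIs) and 1.46 CPM in WT (10 UMIs), a ratio of 6.53 (3.18 to 14.8). Stromal-gated cells had it at 295 CPM in CKO and 337 CPM in WT, and the part of free RNA from them was not tested. In macrophage-gated cells it lay the other way, at 3.66 CPM in CKO and 24.0 CPM in WT. Sycp3, a meiotic chromosome protein gene, had 10 UMIs in CKO and 1 in WT progenitor-gated cells.

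Across gates and libraries, the genes whose level was most like that of each member were found among 4949 genes by Pearson correlation of log2(CPM + 5) over 14 points, the gates of 20 or more cells in each library. These points share libraries and depth, and gates share marker rules, so the values are given as a description. For Dnmt1 they were Akirin1 (0.970), Ptpre (0.948) and Safb2 (0.946), and for Dnmt3b Def6 (0.968), Tomm34 (0.963) and Ptgs1 (0.963). For Dnmt3a they were Preb (0.966), Elovl1 (0.945) and Ndc1 (0.944). The TET genes had Limd1 (0.919), Plscr1 (0.897) and Usp47 (0.864) for Tet1, Rnf4 (0.849), Zfp36 (0.835) and Ctps2 (0.831) for Tet2, and Yipf1 (0.922), Commd6 (0.917) and Smim15 (0.908) for Tet3. Among the members themselves, Dnmt1 and Dnmt3b were the closest pair at 0.926, Dnmt3a and Tet1 had 0.685, and Dnmt3b and Tet1 0.117.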

How the data were processed

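One Baf155 CKO and one WT library of yolk sac cells were used. The authors deposited UMI counts per gene and barcode, whole numbers that were not normalized, made with Cell Ranger on GRCm38 (Seurat is also named), per the submitters' processing notes. From these counts, barcodes under 500 genes or over 10% mitochondrial UMIs (18 CKO, 28 WT) were dropped, and doublets called with Scrublet at an expected 1% (6 CKO and 3 WT) were left out. Barcodes held 6328 to 96471 UMIs in CKO and 6054 to 114332 in WT. Gates used markers at 2 UMIs with 4 markers needed (endoderm: 1% of UMIs), in a fixed order, and Adgre1 was not used. UMIs were summed by gate and library into CPM with exact Poisson intervals; ratios have conditional exact binomial and shares exact binomial 95% intervals. A gene was measured at 20 UMIs over both libraries; lists add 0.5 CPM. UMIs of 1 cell are not independent, and the intervals hold no differences between embryos. Genes named were all members, list genes with at least 100 UMIs past 2-fold in a gate, otherwise the 2 most abundant of a list, and the 3 genes most like each member (mean at least 20 CPM); Rhox5, Sycp3, Dnmt3l, Uhrf1, Tdg and Ogt were added as examples after their values were seen. Members and lists were chosen with earlier results of these data known. Alternatives varied the gates, filters, depth, sex, cell cycle and clustering (Leiden at resolution 1, 15 neighbours, 30 components, 2000 genes). Of the steps, only the ratio intervals and 2-fold calls were tested on simulated data, as sums of UMIs with no spread between cells. Clustering used scanpy 1.11.5 with igraph 0.11.9, intervals scipy 1.17.1 and figures matplotlib 3.10.9, in Python 3.11.15 with pandas 2.3.3 and numpy 2.4.6 (seed 0).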

Additional observations from a re-analysis of the deposited data

Results flagged for a closer look

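Some members lay on opposite sides of 1 in different gates, each with an interval that left out 1. These differences between gates were not tested, as there was 1 library per genotype. Dnmt1 had a ratio of CKO over WT of 1.34 in macrophage-gated and 0.852 in progenitor-gated cells. Dnmt3b had 1.28 in progenitor-gated, 1.47 in dual, 2.81 in erythroid-gated and 2.24 in macrophage-gated cells, against 0.618 in stromal-gated cells. In dual cells the Dnmt3b ratio was 0.961 at a high S phase share, and in stromal-gated cells 1.02. Tet3 had 1.90 in dual and 0.512 in macrophage-gated cells. The macrophage values rest on 20 CKO cells, of which 16 also passed another gate and 1 held 27 of the 112 Dnmt3b UMIs.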

How the results depend on the processing

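Results were compared over 19 planned settings and 2 added after seeing the data (dual cells joined to progenitors, and myeloid-primed progenitors alone). These settings kept 125 of 141 progenitor values. For ratios of members, kept means within the counting interval of the value reported. The 141 also hold 21 counts of genes past 2-fold, which have no such interval, and 20 of these stayed near the value reported. With cells thinned to 10000 UMIs, the ratio was 0.739 for Dnmt1, 1.07 for Dnmt3a, 1.11 for Dnmt3b and 0.433 for Tet1. Within Xist-positive cells it was 1.62 for Dnmt3b, 0.359 for Tet1 and 0.433 for Tet3, and within Y-positive cells 0.961 for Dnmt3b. Below the S phase limit Dnmt3b had 1.05; at or above it Dnmt3b had 1.94, Tet1 0.401 and Tet3 0.538. Gates taken from clusters gave Tet3 1.34. Joined with dual cells Dnmt3b had 1.42, and in myeloid-primed cells alone 1.14. Without a minimum of UMIs, 4864 of 15340 genes passed 2-fold in progenitor-gated cells, against 1209 of 10022, and 54.7% of those were higher, against 65.2%. The causes were not tested. Over the settings the progenitor ratio ranged over 0.739 to 0.962 for Dnmt1, 1.07 to 1.74 for Dnmt3a, 0.961 to 1.94 for Dnmt3b and 2.003 to 5.996 for Tet2. In other gates 473 of 509 values stayed within the interval of the value reported, and 37 lay on the other side of 1. Dnmt3b crossed 1 in dual (0.961 to 1.96), endothelium-gated (0.647 to 7.64) and stromal-gated cells (0.377 to 1.09). Among ratios past 2-fold, 2 values crossed 1: Tet2 in Xist-positive erythroid-gated cells at 0.766 (2 CKO UMIs and 1 WT UMI) and Dnmt3b in macrophage-gated cells at 0.128, with only the 5 CKO cells with 0 Smarcc1 UMIs. Depth limits Tet2 most, with 73 UMIs in all CKO and 33 in all WT cells. No paired analysis was possible because each genotype has 1 library.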
